A study of Homo sapiens with 12 samples.

Results

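The 10 genes described here, called the members below, are NQO1, SRXN1, TXNRD1, GPX2, ME1, OSGIN1 and the aldo-keto reductases AKR1B10, AKR1C1, AKR1C2 and AKR1C3. They are targets of the transcription factor NRF2, and all 10 had a row among the 13554 genes of the knockdown table and the 13583 genes of the overexpression table. They were chosen by their own values in these libraries, because they lay on both sides of the control when GPD1L was overexpressed and were high in 1 knockdown library. Their levels and differences are therefore given as a description with no test, and tests are given only for other genes of the pathway. All 12 libraries came from SW480, an established human colon cancer cell line with stable transfection, and poly(A) RNA was sequenced from 3 libraries in each of 4 groups. In the knockdown table, shGPD1L carried a short hairpin against GPD1L, glycerol-3-phosphate dehydrogenase 1-like, and shNC was its hairpin control. In the overexpression table, OE overexpressed GPD1L and Vector was its vector control. The sources used here do not give the culture time, the number of hairpins, or whether a line was a clone or a pool. Titles give every library of shGPD1L and OE the same gene, but the genotype labels of these groups count the gene name up with the replicate. This was taken as a slip in the labels. The sources do not say if the 3 libraries of each group were grown as separate cultures. The spread and the p-values therefore measure differences between these libraries, which may be technical.

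NRF2, encoded by NFE2L2, is held low by KEAP1, an adaptor that hands it to a ubiquitin ligase. When reactive cysteines of KEAP1 are modified by electrophiles or oxidants, NRF2 escapes, pairs with a small MAF protein and binds antioxidant response elements, while BACH1 competes for the same sites. Its targets supply glutathione, thioredoxin and NADPH and detoxify carbonyls and quinones, and in tumour cells they are often high together. The aldo-keto reductases use NADPH to reduce aldehydes, ketones and steroids, and the AKR1C genes lie side by side on chromosome 10.

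The sequences below show where the core of an antioxidant response element stands near the starts of members, and why the AKR1C values cannot be read as fully separate. RefSeq promoters (GRCh38.p14) were at hand for 9 of the 10 members, all but AKR1B10, with 11 starts. The 250 bases before each start were searched on both strands. The core was written TGACNNNGC, where N is any base. It was found in 3 members, GPX2, ME1 and TXNRD1. Each stretch is printed 5′ to 3′ on the strand of its gene, with 10 bases on each side and the match in capitals. GPX2 and ME1 lie on the minus strand of the genome and TXNRD1 on the plus strand. In the labels of the stretches, plus means the strand of the gene and minus the opposite strand.
GPX2, chr14:64942849-64942877, match on the minus strand: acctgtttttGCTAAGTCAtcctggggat
ME1, chr6:83431170-83431198, match on the plus strand: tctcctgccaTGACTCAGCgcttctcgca
TXNRD1, chr12:104215670-104215698, match on the plus strand: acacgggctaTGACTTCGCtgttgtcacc
TXNRD1, chr12:104286920-104286948, match on the minus strand: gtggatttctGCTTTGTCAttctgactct
The matches began 122 bases before the GPX2 start, 137 before the ME1 start, and 99 and 102 before 2 starts of TXNRD1. The GPX2 site and the second TXNRD1 site lie inside the gene spans of GENCODE 29, which begin further upstream than these RefSeq starts. A match was found for 33.3% of the members with an entry and for 13.2% of 27305 genes searched in the same way. The AP-1 motif, TGACTCA or TGAGTCA, was found in 2 of the 9 members, against 5.19% of the genes. In ME1 it overlapped the core shown above, and in OSGIN1 it began 97 bases before a start inside the gene.
OSGIN1, chr16:83953133-83953159, match on the plus strand: gggcccctgcTGACTCAcgcttatgaa
A match is a description of these letters and not of binding. No bases beyond these 250 were searched and AKR1B10 was not searched, so a member without a match may still have the element.

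The coding sequences of AKR1C1 and AKR1C2 differed at 19 of 969 aligned bases (98.0% identity), and those of AKR1C1 and AKR1C3 at 83 (91.4% identity). The first 90 coding bases of each, from GENCODE 29 on GRCh38, are printed 5′ to 3′ with capitals at the 11 positions that were not the same in all 3 genes.
AKR1C1: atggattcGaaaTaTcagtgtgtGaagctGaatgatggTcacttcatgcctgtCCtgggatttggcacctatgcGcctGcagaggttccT
AKR1C2: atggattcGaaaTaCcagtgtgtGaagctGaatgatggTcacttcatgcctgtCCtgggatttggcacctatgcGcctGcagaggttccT
AKR1C3: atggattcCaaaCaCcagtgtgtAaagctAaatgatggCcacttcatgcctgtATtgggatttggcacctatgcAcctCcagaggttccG
AKR1C1 and AKR1C2 differed at 1 of these positions, so a read that lies within this stretch and misses that position fits both. AKR1B10 and its neighbour AKR1B15 differed at 62 of 948 aligned coding bases (93.5% identity). The sources used here do not say how reads that fit several copies were treated, so the split between these copies is uncertain.

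GPD1L, the targeted gene, was 8.60 ± 0.550 FPKM (SD, n = 3; FPKM are fragments counted per kilobase of a transcript and set against all mapped fragments) in shNC and 1.68 ± 0.494 (SD, n = 3) in shGPD1L. It was 10.7 ± 0.449 (SD, n = 3) in Vector and 22.4 ± 0.366 (SD, n = 3) in OE, so both tables matched their labels for this gene. Depth is unknown, and summed FPKM was 421700 to 444800 per library. The third shGPD1L library stood apart on the first principal component of the knockdown table, at 29.1 against -12.1 to 0.3 for the other 5 libraries. All 7 epithelial markers checked, EPCAM, KRT8, KRT18, KRT19, CDH1, CDX2 and VIL1, were listed, with a summed level of 3774 to 5427 FPKM per library. Of 10 markers of other cell types, CD68, COL1A1 and DES had a row and summed to 21.05 to 36.4 FPKM, and PTPRC, CD3E, PECAM1, VWF, COL1A2, DCN and ALB had none.

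The aldo-keto reductases were higher in Vector than in OE in every library, and in the knockdown table all 4 were highest in the third shGPD1L library. AKR1B10 (chromosome 7, 134527592 to 134541408, plus strand, GRCh38), which reduces retinal and lipid aldehydes, was 75.2, 78.1 and 79.6 FPKM in Vector and 40.7, 42.2 and 43.0 FPKM in OE. The OE level was lower by a log2 difference of -0.87, on the log2(FPKM + 1) scale used for all differences here. In bulk RNA, fewer cells with a transcript and less of it in each cell cannot be told apart. In shNC, AKR1B10 was 11.9, 12.8 and 14.0 FPKM, and in shGPD1L it was 10.2, 10.2 and 53.6 FPKM. The first 2 shGPD1L libraries thus lay below every shNC library and the third lay about 4.14-fold above the shNC mean.

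AKR1C1 (chromosome 10, 4963253 to 4983283, plus strand) encodes an enzyme that inactivates progesterone. It was 21.0, 21.0 and 20.8 FPKM in Vector and 16.8, 13.7 and 14.5 FPKM in OE, a log2 difference of -0.46. In shNC it was 4.27, 3.69 and 4.56 FPKM, and in shGPD1L it was 2.18, 2.85 and 10.7 FPKM. The pattern of AKR1B10 recurred here, with the first 2 shGPD1L libraries below all 3 shNC libraries and the third above them.

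AKR1C3 (chromosome 10, 5035354 to 5107686, plus strand) makes active androgens and prostaglandin F. It was 32.5, 30.0 and 32.1 FPKM in Vector and 21.2, 20.4 and 22.0 FPKM in OE, a log2 difference of -0.55. Its shNC values were 5.58, 6.20 and 6.05 FPKM and its shGPD1L values 4.92, 6.49 and 14.1 FPKM, so the first 2 shGPD1L libraries lay on both sides of shNC. AKR1C2 (chromosome 10, 4987400 to 5018031, minus strand), which reduces dihydrotestosterone, was the lowest of the 4 on this per-length scale, at 2.57, 3.14 and 3.19 FPKM in Vector and 1.99, 1.69 and 2.28 FPKM in OE. In the knockdown table it was 0.646, 0.803 and 0.897 FPKM in shNC and 0.324, 0.323 and 1.64 FPKM in shGPD1L, below the mean of 1 FPKM needed for a test.

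GPX2, the epithelial glutathione peroxidase that reduces hydroperoxides (chromosome 14, 64939152 to 64942905, minus strand), followed the aldo-keto reductases in the overexpression table. It was 37.8, 42.3 and 39.4 FPKM in Vector and 21.9, 20.6 and 19.9 FPKM in OE, a log2 difference of -0.91 and the most negative of the 10. In shNC it was 11.8, 14.4 and 13.5 FPKM, and in shGPD1L it was 15.8, 12.8 and 47.4 FPKM. The third shGPD1L library was 3.59-fold above the shNC mean, and the other 2 lay on both sides of it. GPX2 overlaps CHURC1 and CHURC1-FNTB on the other strand, and no source says that the counting used strand, so the 3 genes may share reads.

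SRXN1 and OSGIN1 were higher in OE than in Vector and also higher in all 3 shGPD1L libraries than in shNC, so they lay on the same side in both comparisons although GPD1L itself did not. SRXN1, which reactivates over-oxidised peroxiredoxins (chromosome 20, 646615 to 653370, minus strand), was 55.0, 55.8 and 54.7 FPKM in Vector and 87.5, 89.2 and 87.0 FPKM in OE, a log2 difference of 0.66. It was 33.8, 29.9 and 34.3 FPKM in shNC and 38.6, 40.9 and 57.9 FPKM in shGPD1L. OSGIN1, an oxidative-stress-induced growth inhibitor (chromosome 16, 83948282 to 83966332, plus strand), was 18.4, 16.2 and 17.6 FPKM in Vector and 26.0, 28.7 and 29.8 FPKM in OE, a log2 difference of 0.66. Its shNC values were 8.63, 9.20 and 7.78 FPKM and its shGPD1L values 10.8, 10.7 and 22.3 FPKM. Neither gene's groups overlapped in either table.

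TXNRD1, the cytosolic reductase that keeps thioredoxin reduced (chromosome 12, 104215779 to 104350305, plus strand), was 244, 235 and 248 FPKM in Vector and 313, 285 and 298 FPKM in OE, a log2 difference of 0.30. In shNC it was 179, 152 and 171 FPKM, and in shGPD1L it was 131, 138 and 224 FPKM, with the first 2 libraries below and the third above all of shNC. ME1, the cytosolic malic enzyme that makes NADPH (chromosome 6, 83210389 to 83431071, minus strand), was 68.8, 66.7 and 67.8 FPKM in Vector and 75.3, 69.5 and 69.9 FPKM in OE. The ME1 groups did not overlap, but the log2 difference was 0.08. ME1 was the 1 member that was not highest in the third shGPD1L library, at 32.3, 34.0 and 40.5 FPKM in shGPD1L against 40.5, 43.2 and 41.1 FPKM in shNC.

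NQO1, the quinone reductase often used as a readout of NRF2 (chromosome 16, 69706996 to 69726951, minus strand), had the highest level of the members in every library. It was 773, 771 and 744 FPKM in Vector and 760, 759 and 759 FPKM in OE, so all OE values lay within the Vector range. Its log2 difference was -0.01, and this sign turned with the scaling, to 0.04 with equal library totals and 0.14 after quantile normalization. In shNC it was 342, 317 and 362 FPKM, and in shGPD1L it was 360, 398 and 550 FPKM, where the first library lay within the shNC range.

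**Figure D1:**
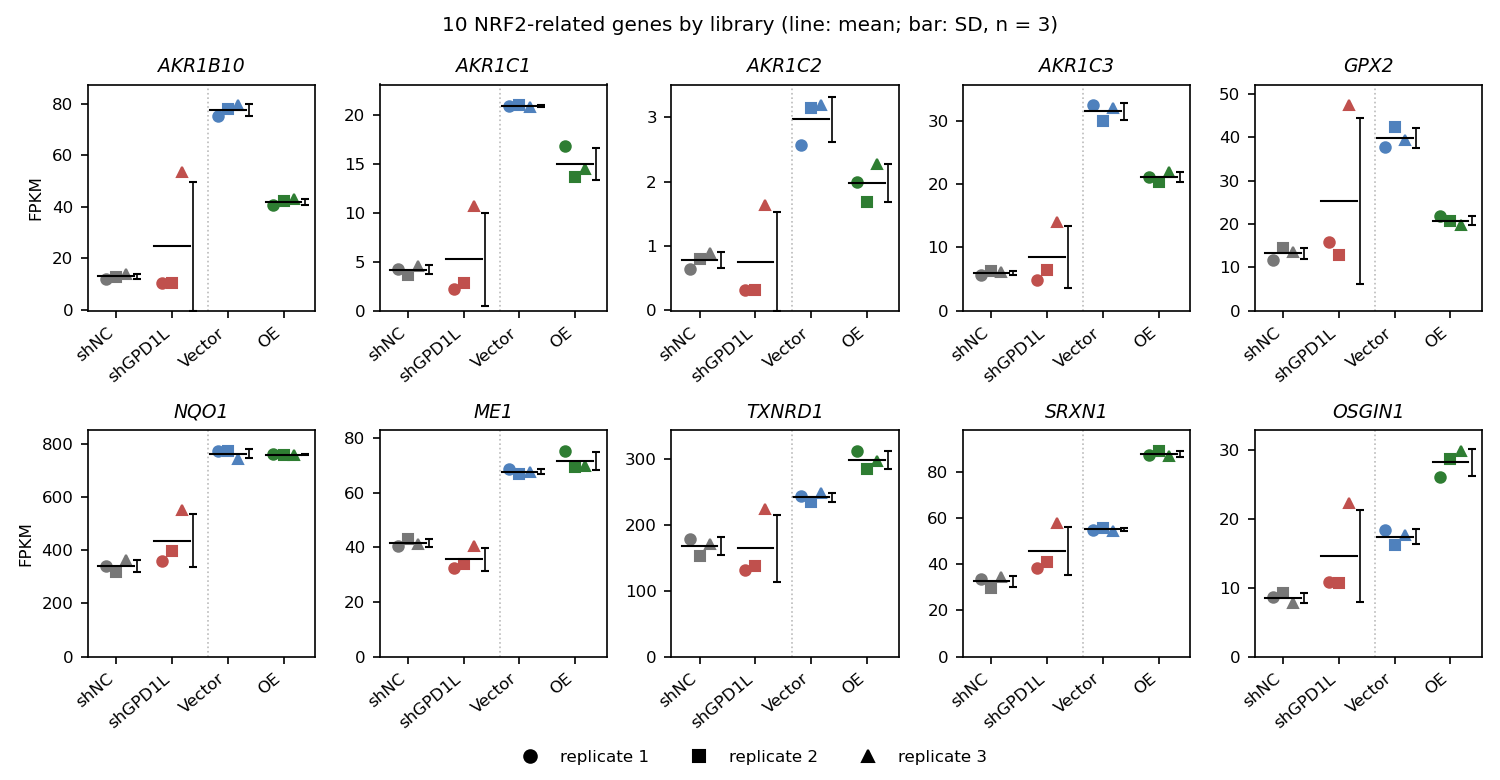
FPKM of each member (y axis, linear, its own scale per panel) in shNC, shGPD1L, Vector and OE, with 1 symbol per library shaped by replicate, a line at the group mean and a bar of 1 SD (n = 3). The third shGPD1L library lies above the other 5 of its table for 9 of the 10 genes, and every member is higher in Vector than in shNC.

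With overexpression, 4 members (SRXN1, OSGIN1, TXNRD1 and ME1) lay above Vector in all OE libraries, 5 (GPX2 and the 4 aldo-keto reductases) lay below it, and NQO1 overlapped. Of all 12208 genes tested, 24.2% lay above and 17.6% below without overlap, and 12.2% were called higher and 10.3% lower by limma at a Benjamini-Hochberg adjusted p under 0.05. Since these values chose the members, nothing is read from that difference. In the knockdown, the groups of SRXN1 and OSGIN1 did not overlap, both higher, and none was lower, beside 9.54% of the 12156 genes tested that were higher without overlap and 15.1% that were lower. The limma calls there were few, at 0.115% higher and 0.477% lower.

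**Figure D2:**
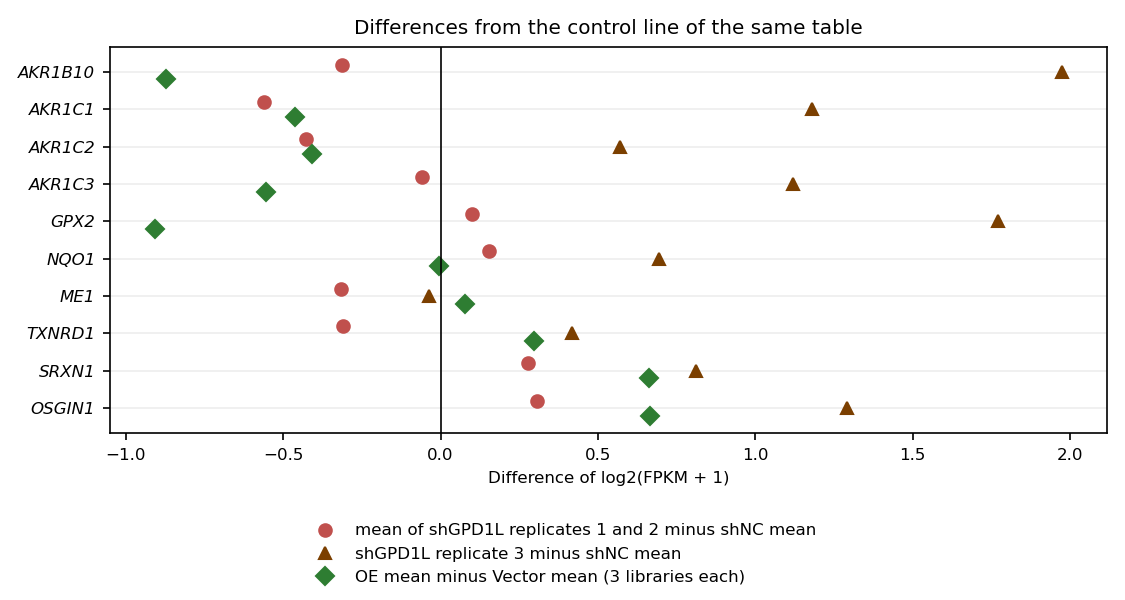
Difference of log2(FPKM + 1) from the control of the same table (x axis) for each member, with circles for the mean of shGPD1L replicates 1 and 2, triangles for shGPD1L replicate 3 and diamonds for the mean of the 3 OE libraries, and no error drawn. The aldo-keto reductases and GPX2 lie left of 0 for OE, from -0.91 to -0.41, and the triangles of all members but ME1 lie right of 0.

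The sign of several knockdown differences turned when the third shGPD1L library was left out. With all 3 libraries the log2 difference was 0.45 for AKR1B10, 0.02 for AKR1C1 and 0.33 for AKR1C3, and without that library it was -0.31, -0.56 and -0.06. GPX2 went from 0.66 to 0.10, NQO1 from 0.33 to 0.15, OSGIN1 from 0.64 to 0.31 and SRXN1 from 0.46 to 0.28. TXNRD1 went from -0.07 to -0.31, ME1 from -0.22 to -0.32 and AKR1C2 from -0.09 to -0.43. In the first 2 shGPD1L libraries alone, 5 members (AKR1B10, AKR1C1, AKR1C2, TXNRD1 and ME1) lay below every shNC library and 2 (SRXN1 and OSGIN1) lay above. Of all genes tested, 23.6% had both libraries below and 19% had both above.

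In the third shGPD1L library, 9 of the 10 members were above all 5 other libraries of the table, as were 21.8% of all genes tested, and 5 were above by more than 0.5 log2 units. The gap to the next library was 1.86 for AKR1B10, 1.53 for GPX2, 1.07 for AKR1C1, 1.01 for AKR1C3 and 0.98 for OSGIN1. SRXN1 at 0.49, AKR1C2 at 0.48 and NQO1 at 0.47 were just outside. Across all genes tested, 1.07% had such a gap upwards and 2.2% had one downwards, and since the members were chosen partly on this library their count is a description. Against the shNC mean, the third library was 2.61-fold higher for OSGIN1, 2.56-fold for AKR1C1, 2.37-fold for AKR1C3, 1.77-fold for SRXN1, 1.62-fold for NQO1 and 1.34-fold for TXNRD1.

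Other genes of the pathway shared this pattern in some roles and not in others. Of 29 other NRF2 targets tested, 20 were highest in the third shGPD1L library, beside 21.8% of all genes. By more than 0.5 log2 units, 9 were highest there, beside 1.07% of all genes: ABCC3, ALDH3A1, FTL, GSR, HMOX1, PIR, TKT, TRIM16L and UGDH. HMOX1, which degrades heme, was 8.78, 7.12 and 6.98 FPKM in shNC and 7.42, 8.73 and 15.2 FPKM in shGPD1L. TKT, transketolase of the pentose phosphate pathway, was 245, 254 and 252 FPKM in shNC and 302, 301 and 468 FPKM in shGPD1L. SQSTM1, which sequesters KEAP1 and is itself a target, was 244, 243 and 244 FPKM in shNC and 281, 283 and 425 FPKM in shGPD1L. Averaged over the 29 targets, the log2 deviation from the shNC mean was -0.005, 0.021 and 0.379 in the 3 shGPD1L libraries.

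The thioredoxin and peroxiredoxin list without the members showed no such gene. None of its 21 genes was highest in the third shGPD1L library. There, 5 (GLRX2, MSRA, PRDX4, SESN2 and TXNRD2) were lowest by more than 0.5 log2 units, beside 2.2% of all genes. Mean deviations over the list were -0.063, 0.061 and -0.392 in the 3 shGPD1L libraries. Other features of that library are set beside the members here. Summed FPKM of 17 immediate-early genes was 592, 565 and 997 in shGPD1L against 491 to 551 in shNC. Of the 16 tested, 7 were highest in the third library by more than 0.5, beside 1.07% of all genes. Its median deviation was -0.137 for genes with short transcripts, -0.073 for middle and -0.02 for long ones, and 5, 4 and 1 of the members fell in these classes. The markers of other cell types summed to 25.4, 22.3 and 35.3 FPKM in the 3 shGPD1L libraries against 31.9 to 36.4 in shNC, with the same 7 of 10 without a row. The part of these features in the members' values was not tested.

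**Figure D3:**
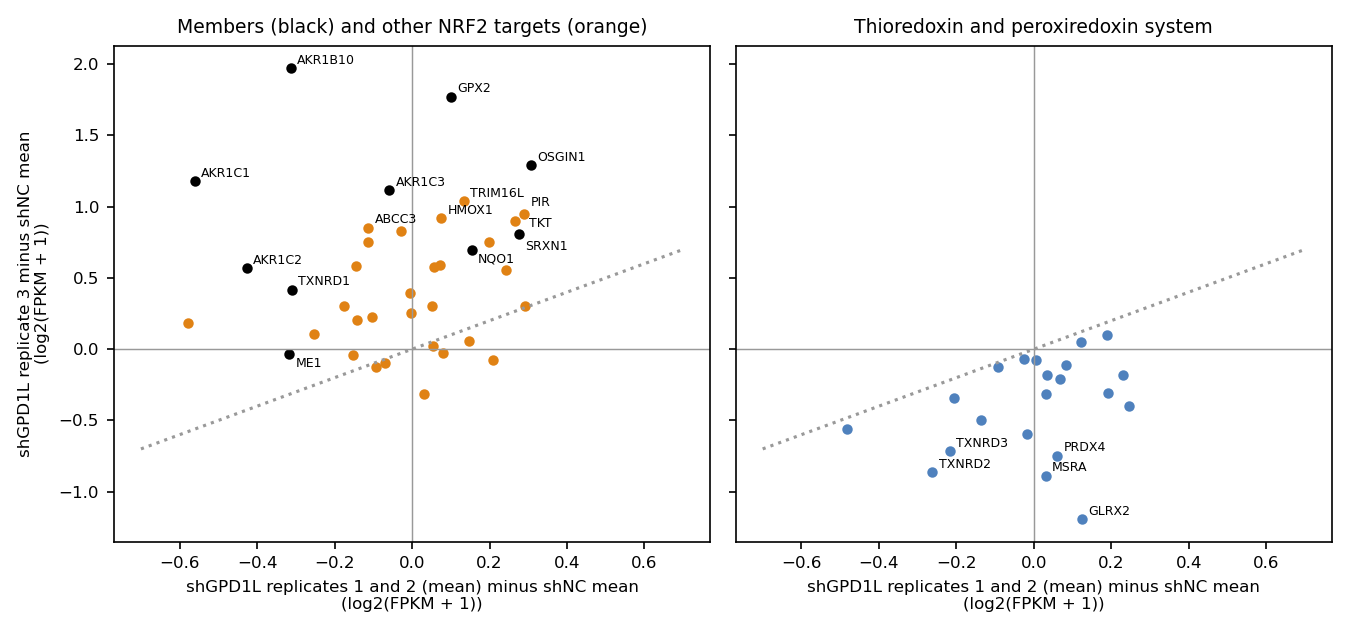
Log2(FPKM + 1) of shGPD1L replicate 3 less the shNC mean (y axis) against the mean of shGPD1L replicates 1 and 2 less the shNC mean (x axis), 1 point per gene, with a dotted line where both are equal. All 10 members (black) lie above the line, as do most of the 29 other NRF2 targets (orange), and the 21 thioredoxin and peroxiredoxin genes (right panel) lie below it, down to GLRX2.

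The 2 control lines differed in all of these genes. Across the 2 tables, which may have been normalized separately, all 10 members were higher in every Vector library than in every shNC library. Set as ratios of means, Vector was 6.01-fold above shNC for AKR1B10, 5.31-fold for AKR1C3, 5.02-fold for AKR1C1, 3.79-fold for AKR1C2 and 3.01-fold for GPX2. It was 2.24-fold for NQO1, 2.04-fold for OSGIN1, 1.69-fold for SRXN1, 1.63-fold for ME1 and 1.45-fold for TXNRD1. Of 11207 annotated genes that averaged 1 FPKM or more in each table, 27.3% were higher in all Vector libraries and 2.03% had a ratio above 2, with a median ratio of 0.990. Of the 9 members that met this filter, 6 had a ratio above 2, and AKR1C2 did not meet it. NFE2L2 was 1.43-fold higher in Vector and KEAP1 0.953-fold. Batch, culture and construct cannot be told apart across the tables.

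To ask whether the rest of the NRF2 system moved with GPD1L, 111 genes outside the members were taken from 7 lists: NRF2 regulators, other NRF2 targets, other aldo-keto reductases, the thioredoxin system, glutathione peroxidases and transferases, NADPH-generating enzymes and aryl hydrocarbon receptor genes. In the knockdown, limma called 0 of the 95 tested at an adjusted p under 0.05. At an unadjusted limma p under 0.05 there were 14 of these 95, beside 1980 of all 12156 genes tested. With a robust fit, limma gave 0 calls and 13 such genes among the pathway genes. The median log2 difference was -0.023, beside -0.036 for all genes tested. Without the third shGPD1L library, limma called 3 of them: ABCC2, a conjugate export pump, at -0.58 (adjusted p = 0.0248), SESN1, a sestrin, at -0.48 (adjusted p = 0.0311) and TKT at 0.27 (adjusted p = 0.0481). Over all genes, limma called 608 without that library and 72 with it, so calls rose well beyond the pathway. The 3 pathway genes are named after their values were seen.

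With overexpression, limma called 33 of the 95 pathway genes tested, 15 higher and 18 lower, beside 12.2% higher and 10.3% lower of all 12208 genes. Their median log2 difference was -0.027, beside 0.024 for all genes. Leaving out replicate 1, 2 or 3 of Vector left 18, 14 or 21 calls, while calls over all genes went from 2740 to 1676, 1540 or 1966. Of the 14 regulators, 6 rose and 2 fell, beside 12.2% and 10.3% of all genes. With the replicate number as a block, 3 regulators rose (SQSTM1, NFE2L2 and MAFF) and 2 fell, and the numbers do not pair the libraries. NFE2L2 itself was 73.9 ± 0.543 FPKM in Vector (SD, n = 3) and 85.4 ± 3.35 FPKM in OE (SD, n = 3), and rose by 0.20 on the log2 scale (SE 0.043, limma adjusted p = 0.0128). SQSTM1 rose from 371 ± 6.22 to 492 ± 10.8 FPKM, a log2 difference of 0.41 (limma adjusted p = 0.000468), and MAFF, a small MAF partner, rose by 0.44 (limma adjusted p = 0.00408). RBX1, a subunit of the ligase that KEAP1 serves, fell by 0.26 (limma adjusted p = 0.00918). KEAP1 was 36.5 ± 2.40 FPKM in Vector and 38.5 ± 3.50 in OE (SD, n = 3 each), a log2 difference of 0.08 that did not pass (limma adjusted p = 0.503). BACH1, the competing repressor, rose by 0.22 (limma adjusted p = 0.0291), a call held in only 1 of the 6 fits that left out a library, with an adjusted p of 0.0438 to 0.0917. It was lost without each Vector library and without replicate 1 or replicate 3 of OE.

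Among the 29 other NRF2 targets, 4 rose and 5 fell, beside 12.2% of all genes called higher and 10.3% called lower. SLC7A11, the cystine carrier, was 45.4 ± 1.67 FPKM in Vector (SD, n = 3) and 63.2 ± 4.54 FPKM in OE (SD, n = 3) and rose by 0.47 (limma adjusted p = 0.00186). GCLM and GCLC, the subunits of glutamate-cysteine ligase, rose by 0.42 (limma adjusted p = 0.00266) and 0.31 (limma adjusted p = 0.00267). TKT fell by 0.31 (limma adjusted p = 0.0127) and EPHX1, an epoxide hydrolase, fell by 0.25 (limma adjusted p = 0.00496), and both held in all 6 fits that left out a library. HMOX1 fell by 0.30 (limma adjusted p = 0.0172), a call lost without replicate 1 or 2 of Vector or replicate 3 of OE (adjusted p up to 0.0588). FTL, the ferritin light chain, rose by 0.16 (limma adjusted p = 0.0175), a call lost without replicate 2 of Vector or replicate 2 or 3 of OE (adjusted p up to 0.0766).

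Of the 7 other aldo-keto reductases tested, 4 fell and none rose, beside 10.3% of all genes called lower and 12.2% called higher. AKR7A3 and AKR7A2, which reduce aflatoxin and succinic semialdehyde respectively, fell by 0.57 (limma adjusted p = 0.00601) and 0.40 (limma adjusted p = 0.00656). AKR1B15 fell by 0.48 (limma adjusted p = 0.00851), from 1.73 ± 0.0319 to 0.960 ± 0.0945 FPKM (SD, n = 3 each), and may share reads with AKR1B10. AKR1B1, aldose reductase, was 2.43, 2.93 and 2.79 FPKM in Vector and 3.13, 2.49 and 8.29 FPKM in OE, where 1 library stood far above the rest.

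Calls in the remaining lists went both ways in some and 1 way in others. Of all genes tested, 12.2% were called higher and 10.3% lower, and each count below stands beside these shares. Of the glutathione peroxidases and transferases, 3 of 16 fell and none rose, led by GSTK1, the mitochondrial and peroxisomal kappa transferase, at -0.35 (limma adjusted p = 0.0012). Of these 3, GSTK1 was called in all 6 fits that left out a library. GSTO1 was lost in each of them (adjusted p up to 0.13), and GSTP1 was lost without replicate 1 or 2 of Vector or replicate 2 of OE (adjusted p up to 0.0627). Of the thioredoxin and peroxiredoxin genes, 1 of 20 rose and 2 fell, and none of these 3 was called in all 6 fits that left out a library. GLRX2, which rose, was lost without any 1 library (adjusted p up to 0.12), MSRB1 without every library but replicate 3 of OE (adjusted p up to 0.125), and PRDX3 without replicate 1 or 2 of Vector (adjusted p up to 0.0546). Of the NADPH-generating enzymes, 2 of 13 rose and 3 fell. The falls of ALDH1L1, IDH2 and ME3 were each called in 1 of the 6 fits that left out a library, with adjusted p up to 0.11, 0.0769 and 0.096. ALDH1L1 and IDH2 were called only without replicate 3 of OE, and ME3 only without replicate 3 of Vector. NADK2, which rose, was lost without replicate 2 or 3 of Vector (adjusted p up to 0.0608). MTHFD2, of mitochondrial folate metabolism, rose by 0.36 (limma adjusted p = 0.00345) and held in all 6. Of 3 aryl hydrocarbon receptor genes tested, 2 rose, ARNT and TIPARP. The ARNT call was lost without replicate 2 or 3 of Vector or any 1 of the OE libraries (adjusted p up to 0.121). That of TIPARP was lost without replicate 1 or 2 of Vector or replicate 2 or 3 of OE (adjusted p up to 0.0575). Over the immediate-early genes, 8 of 15 rose and 1 fell in OE, and their summed level was 828 to 922 FPKM against 688 to 724 in Vector. Markers of other cell types summed to 21.05 to 21.99 FPKM in OE and 23.87 to 24.93 in Vector, and of these DES, the muscle filament desmin, fell by 1.08 (limma adjusted p = 0.000477). All 7 epithelial markers were called in OE, 3 higher (KRT8, KRT18 and KRT19) and 4 lower (EPCAM, CDH1, CDX2 and VIL1). The KRT8 call held in only 1 of the 6 fits that left out a library (limma adjusted p up to 0.0761). The falls were 0.59 for CDX2, 0.53 for VIL1, 0.31 for CDH1 and 0.21 for EPCAM (limma adjusted p = 0.00217, 0.000252, 0.00155 and 0.00724). The part of these genes in the members' values was not tested.

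**Figure D4:**
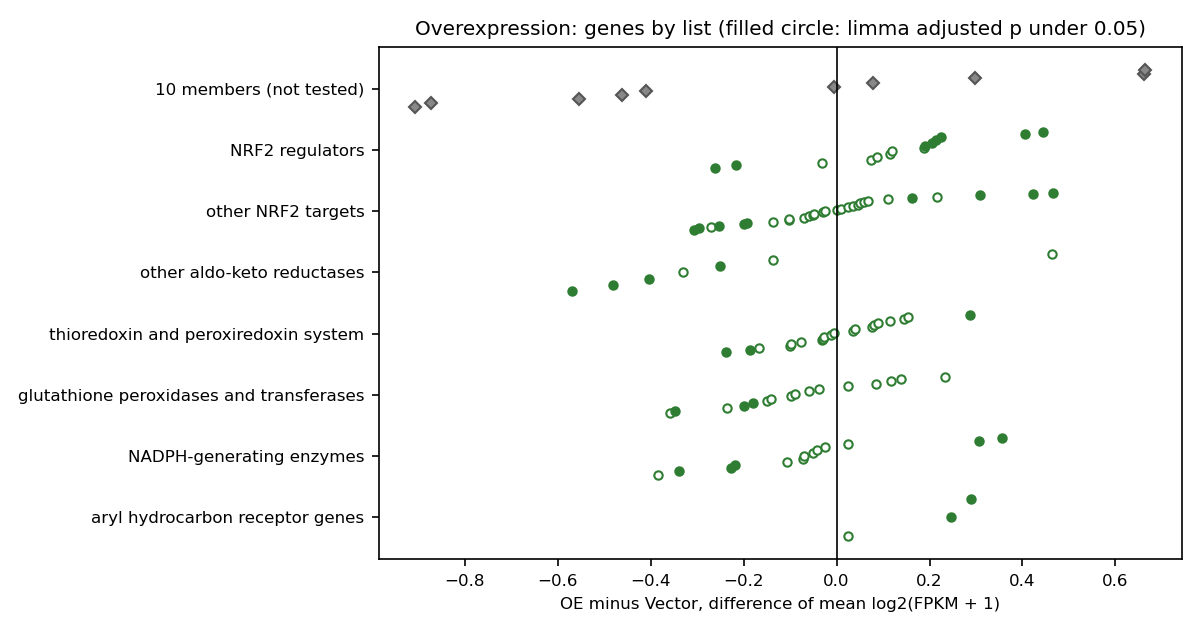
Difference of OE from Vector (x axis, log2(FPKM + 1)) for each gene, in 1 row per list, with grey diamonds for the members, which were not tested, filled circles for limma calls and open circles for genes not called; height within a row only keeps points apart. Of the other aldo-keto reductases 4 of 7 were called lower and none higher, and of the 14 regulators 6 were called higher and 2 lower (3 and 2 with a replicate block).

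The genes whose values followed the members most closely were found by Pearson r over the 12 libraries, each set against the control mean of its table. The points share their libraries and control means, so r is a description only. For the mean of the 4 aldo-keto reductases, the closest annotated genes were CYBRD1 (r = 0.973), a ferric reductase, AHCYL1 (r = 0.972), B4GALT5 (r = 0.970), a galactosyltransferase, CAT (r = 0.967), catalase, and ENTPD2 (r = 0.956), an ectonucleotidase. Without the third shGPD1L library r was 0.929 to 0.961 for these 5, but they were no longer the closest. In the order given, they then ranked 8, 47, 32, 34 and 30 among the genes outside the members. CAT was 24.9 FPKM in shNC on average, 23.7, 22.9 and 31.9 FPKM in the 3 shGPD1L libraries, 50.4 FPKM in Vector and 42.5 FPKM in OE on average. For the mean of the other 6 members they were PLCXD1 (r = 0.977), GRB7 (r = 0.968), PPP1R15B (r = 0.967), FTL (r = 0.963) and UGT1A1 (r = 0.959). This mean joins members that went opposite ways in OE, with GPX2 at -0.91 and SRXN1 and OSGIN1 at 0.66. A gene close to the mean need not follow each of them. Here r rested more on the third shGPD1L library: without it GRB7 was at 0.284, UGT1A1 at 0.108 and FTL at 0.871. UGT1A1, which glucuronidates bilirubin, was 7.07, 7.00 and 41.6 FPKM in the 3 shGPD1L libraries, and it shares exons with the other UGT1A genes, so its value is uncertain.

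The members also differed among themselves when the third shGPD1L library was set aside. Over the other 11 libraries, r was -0.972 between AKR1B10 and SRXN1 and -0.965 between AKR1B10 and OSGIN1, and it was 0.919 between AKR1B10 and AKR1C3, 0.897 between AKR1B10 and GPX2 and 0.93 between SRXN1 and OSGIN1. Other pairs were looser, with 0.619 between AKR1C1 and AKR1C3, 0.545 between GPX2 and AKR1C2 and 0.413 between GPX2 and AKR1C1. TXNRD1 was at 0.837 with ME1 and 0.567 with SRXN1. NQO1 ranged from -0.728 with ME1 to 0.26 with AKR1C3. These values carry the choice of members by their overexpression values.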

How the data were processed

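The authors deposited 2 tables of FPKM, 1 per comparison. The submitters' processing notes list HISAT2, StringTie, DESeq2 and the build GRCh38 without versions or roles, and the annotation and any filter are not stated. Per the labels' protocols, RNA was captured on oligo(dT) beads. Depth is unknown, so no counting interval is given. Identifiers were matched to GENCODE 29, 21 symbols turned into dates were restored in each table, and libraries were grouped by their titles, since the genotype labels number the gene name upwards in shGPD1L and OE.

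Values were taken as log2(FPKM + 1). Within each table, genes that averaged 1 FPKM or more across its 6 libraries were tested in R 4.3.3 by limma 3.58.1 (trend fitted to the mean level, Benjamini-Hochberg adjustment over all of them) and called at an adjusted p under 0.05. The fit was tested on simulated data. Other pseudocounts, filters, scalings and variance models, a replicate block and leaving out each library were tried.

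The members and the gene lists were chosen with earlier results of these data known, so no p is given for a member or a list. The motif search, the coding sequence comparison and the transcript length classes were chosen after seeing the data. Named genes were the members, GPD1L, NFE2L2, KEAP1 and BACH1, up to 3 called genes per list and direction with the largest change, the 5 genes with the highest r to each mean profile, and other targets and thioredoxin genes high in the third shGPD1L library by more than 0.5 log2 units. Other names (SESN1, ABCC2, AKR1B1, EPCAM and the genes lowest in that library) were chosen after their values were seen.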

Additional observations from a re-analysis of the deposited data

How the results depend on the processing

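Of the 10 members, 9 kept 1 direction for OE against Vector under every pseudocount, scaling and left-out library tried, and NQO1 did not. With a pseudocount of 0.1, AKR1C2 was at -0.56. In the knockdown, 5 members (GPX2, ME1, NQO1, OSGIN1 and SRXN1) kept 1 direction. The count of pathway genes called in the overexpression was 28 to 34 under the other pseudocounts, filters, scalings and variance models, and 14 to 23 when 1 library was left out, where fewer samples enter the fit. In the knockdown it was 0 under all of these, 0 to 3 when 1 library was left out, and 3 without the third shGPD1L library. In that last fit 608 of all genes were called, beside 72 in the main fit. Same-numbered libraries did not deviate together (correlations of -0.18 to 0.022 over genes), so the numbers do not pair them. With a replicate block, 0 pathway genes were called in the knockdown and 27 in the overexpression, where the regulators went from 6 higher and 2 lower to 3 and 2. Of 41 named genes called in the overexpression, 25 were called in all 6 fits that left out a library, and neither of the 2 called in the knockdown, GPD1L and ATF3, was. The knockdown call of GPD1L was lost without any 1 of the shNC libraries (adjusted p up to 0.0839). Depth is unknown, which limits low genes such as AKR1C2 and AKR1B15 most.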
